A study of Mus musculus with 8 samples.

Results

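The 47 genes described here encode the proteins that license DNA replication origins, open and copy the DNA, supply its building blocks and rebuild chromatin behind the fork, and all 47 were found among the 31053 genes of the deposited tables. They were listed by name, without a threshold on any measured value: 10 licensing genes, 6 helicase activation genes, 6 genes of the sliding clamp and its loader, 7 polymerase and primase genes, 2 genes of Okazaki fragment joining, 3 single-strand binding genes, 5 nucleotide supply genes, 6 genes that copy chromatin and DNA methylation, the uracil-DNA glycosylase Ung and the histone mRNA binding protein Slbp. RNA was counted in single cells of the dentate gyrus, sorted for green fluorescence from male Nestin-GFP mice, in which regulatory elements of nestin drive GFP. The mice were 8 weeks old, and cells were taken 15 days after a sham craniotomy (Control) or a controlled cortical impact to one side of the brain (TBI), both on the same Nestin-GFP background. The sorted cells included astrocytes, oligodendrocytes and vascular cells besides the neurogenic lineage, so they were not stem cells alone. The labels list 4 Control and 4 TBI animals, the study's methods give a different number, and the animals of a condition were pooled, so each condition is 1 library and no test between them was possible.

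In G1 the origin recognition complex, Cdc6 and Cdt1 load the ring-shaped Mcm2 to Mcm7 helicase onto origins, which is called licensing. On entry into S phase, Cdc45, the GINS complex and Mcm10 turn the loaded ring into an active helicase, primase and polymerases copy the DNA with the help of the clamp Pcna, and ribonucleotide reductase and thymidylate synthesis supply nucleotides. E2F transcription factors with cyclin E are known to switch on many of these genes at the passage from G1 to S phase, and in the adult dentate gyrus such cells are found among activated radial glia-like (RG-like) stem cells and intermediate progenitors, before neuroblasts leave the cell cycle.

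The Control library held 3086 barcodes with 24723113 UMIs and the TBI library 5081 barcodes with 31543330 UMIs, of which 3048 and 5033 cells were kept at medians of 6933 and 5676 UMIs per cell. Only 3 barcodes occurred in both libraries. Clusters were named from fixed marker genes, which gave 162 Control and 187 TBI cycling progenitors, 86 and 128 RG-like cells and 233 and 414 early neuroblasts, and the lineage clusters are called here by their type and a leading gene. The 14 cycling markers summed to 8241 and 7613 CPM (UMIs per 1000000 UMIs of all genes but Malat1) in cycling progenitors of the Control and TBI library, against 744 and 634 CPM in RG-like cells and 19.7 and 16 CPM in oligodendrocytes. The 10 RG-like markers summed to 6226 and 5985 CPM in RG-like cells and to 4125 and 3816 CPM in cycling progenitors. Some clusters stood between types. A cluster led by the proneural gene Neurog2 had a mean marker score of 1.79 for early neuroblasts and 1.69 for RG-like cells, and an RG-like cluster led by Ccne2 had scores of 1.66 for RG-like cells and 1.10 for the next list. The 9 early neuroblast markers summed to 7132 and 6495 CPM in this Ccne2-led cluster and to 10751 and 11459.5 CPM in the Neurog2-led cluster, and the RG-like markers to 6048 and 5349 CPM and to 6312 and 5562 CPM. The 10 astrocyte markers summed to 1222 and 1477 CPM in the Ccne2-led cluster and to 4019.6 and 3435 CPM in the RG-like cluster called Dll1-led below. For the Ccne2-led cluster the name RG-like thus gives only the nearest marker list. The 47 genes were kept out of the genes used for clustering, but genes that move with them were not, so differences between clusters are descriptions. Intervals below are exact 95% intervals that cover counting error only, not variation between animals.

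Summed over the 47 genes, the level was highest in 2 clusters. RG-like cells led by Ccne2, the gene of a cyclin E, stood at 10505 CPM (10266 to 10747) in the Control and 9773 CPM (9563 to 9987) in the TBI library. Cycling progenitors led by histone genes, Esco2 (a cohesin acetyltransferase of S phase), Aurkb and Top2a, called Esco2-led, stood at 8563 CPM (8422 to 8706) and 8056 CPM (7893 to 8222). The order of these clusters was the same in both libraries, and their intervals did not overlap.

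The remaining lineage clusters stood lower in both libraries. Early neuroblasts led by Neurog2 were at 4425 and 3942 CPM, and RG-like cells called Dll1-led, after a Notch ligand among their leading genes, were at 3404 and 3382 CPM. Cycling progenitors led by Cdc20, an activator of the anaphase-promoting complex, were at 2555 and 2194 CPM. The level was lower still in Neurod4-led early neuroblasts, with 1516 and 1378 CPM, and in Tac2-led early neuroblasts, with 1018 and 1043 CPM. Later neuroblasts, at 981 and 928 CPM, were close to Tac2-led cells and still above the 665 and 676 CPM of oligodendrocytes. This name covers clusters nearest to the late neuroblast or the immature granule neuron markers, so the group is not neuroblasts alone. The 8 late neuroblast markers summed there to 8132 and 8445 CPM and the 8 immature granule neuron markers to 8626 and 8912 CPM.

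**Figure D1:**
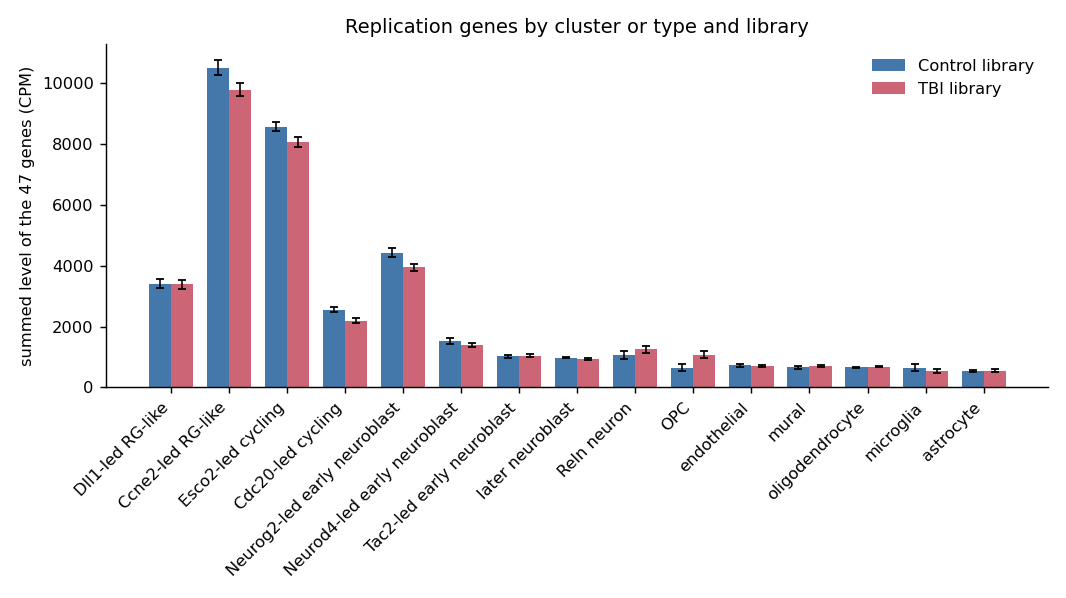
Summed level of the 47 replication genes (y axis, CPM) in each lineage cluster and each other cell type (x axis), with 1 bar for the Control and 1 for the TBI library and lines for the 95% counting interval. Ccne2-led RG-like cells reach 10505 and 9773 CPM and Esco2-led cycling progenitors 8563 and 8056 CPM, whereas Cdc20-led cycling progenitors stay at 2555 and 2194 CPM and the non-neuronal types outside the lineage reach at most 1070.3 CPM, in TBI OPCs.

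By type rather than cluster, RG-like cells held 7364 CPM (7215 to 7515) in the Control and 7060.1 CPM (6925 to 7198) in the TBI library, above the 6056 CPM (5965 to 6147) and 5205 CPM (5111 to 5300.3) of cycling progenitors. This order depended on how the cells were divided: at a clustering resolution of 1.5 in place of 3.0 RG-like cells held 3895 CPM and cycling progenitors 6359 CPM, and with cells above 10% mitochondrial UMIs left out the values were 6648 and 6959 CPM. Both types are mixtures of clusters with a high and a low level, since Ccne2-led cells made up 45 of 86 Control and 67 of 128 TBI RG-like cells, and Esco2-led cells 86 of 162 and 82 of 187 cycling progenitors.

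Gene by gene, 36 of the 47 genes had their highest level over the 7 lineage clusters in Ccne2-led RG-like cells, both libraries together, and the other 11 in Esco2-led cycling progenitors. No gene of the list was highest in the Dll1-led, Cdc20-led or early neuroblast clusters. For 36 of the 47 genes the highest cluster was the same in each library alone, and for 30 the counting interval of the ratio to the second-highest cluster lay above 1. No UMI minimum was set for these counts, and Orc1 entered with 27 UMIs in Ccne2-led and 9 UMIs in Esco2-led cells. The share of all genes that peak in each cluster is not given, so the counts describe the clusters. The 11 genes highest in Esco2-led cells were Orc6, Gins1, Gins3, Rfc4, Pold2, Dnmt1 and all 5 nucleotide supply genes.

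**Figure D2:**
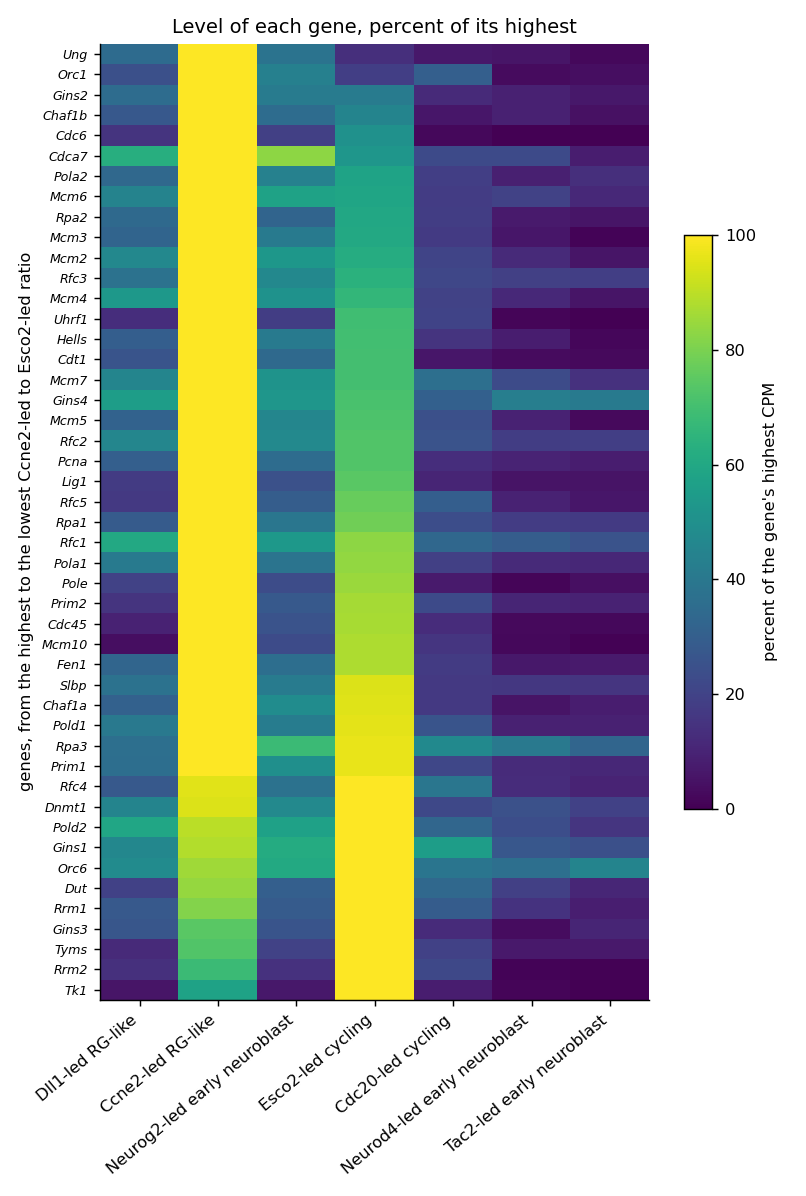
Level of each of the 47 genes (rows) in 7 lineage clusters (columns), as percent of the gene's highest CPM, both libraries together, with rows ordered by the ratio of Ccne2-led to Esco2-led cells. Bright yellow marks the highest level, in the Ccne2-led column for 36 rows and in the Esco2-led column for 11 rows, and the columns of Neurod4-led and Tac2-led early neuroblasts are dark for most genes.

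Licensing genes leaned to the Ccne2-led cells. Summed over the 10 genes they stood there at 2738 CPM in the Control and 2388 CPM in the TBI library, against 1742 and 1628 CPM in Esco2-led, 979 and 1105 CPM in Dll1-led and 619 and 552 CPM in Cdc20-led cells. All of them but Orc6 were highest in Ccne2-led cells in both libraries, with the interval of the ratio to the second cluster above 1.

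Mcm6, a helicase subunit, was at 671 CPM in the Control and 579 CPM in the TBI library in Ccne2-led cells. It was at 389 and 328 CPM in Esco2-led cells, 374 and 342 CPM in Neurog2-led early neuroblasts, 271 and 283 CPM in Dll1-led cells and 116 and 104 CPM in Cdc20-led cells. The libraries differed only in the order of Esco2-led and Neurog2-led cells, and the Ccne2-led to Esco2-led ratio was 1.70 (1.56 to 1.86). The ratios of the other helicase subunits were 1.62 for Mcm2, 1.65 for Mcm3, 1.51 for Mcm4, 1.39 for Mcm5 and 1.42 for Mcm7. Mcm7 counts could include its neighbours, since 3 microRNA genes lie on its strand and 2 genes on the other strand in the same interval.

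Cdc6, the loader that recruits the helicase to the origin recognition complex, was at 105 and 106 CPM in Ccne2-led cells and at 56.7 and 49.6 CPM in Esco2-led cells. Cdc6 was nearly gone in Cdc20-led cells, at 2.55 and 1.84 CPM. Cdt1, its partner in loading, showed the same order, with 121 and 133 CPM, then 98.1 and 77.4 CPM, then 7.65 and 8.27 CPM. Orc1, the largest origin recognition subunit, was rare, at 22.8 and 13.1 CPM in Ccne2-led cells and 3.05 and 3.48 CPM in Esco2-led cells, and it had too few UMIs for the counts below. Orc6, the smallest subunit, was level between the clusters, at 154 and 112 CPM in Ccne2-led and 153 and 154 CPM in Esco2-led cells, and the ratio of 0.853 had an interval (0.718 to 1.01) that included 1.

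The promoters of 4 genes are shown because they carry, or lack, the letters of E2F sites that are known from genes of this kind. Each sequence is the 250 bases before the RefSeq start in the build GRCm38.p6, 5′ to 3′ on the gene's strand. Capitals mark the words TTTCGCGC, TTTGGCGC, TTTCCCGC and TTCCCGCC, which are forms of the E2F site and overlap each other, and CCAAT, the NF-Y box, on either strand. They are Mcm5 (chr8:75109259-75109508, + strand) and Mcm6 (chr1:128359706-128359955, - strand), helicase subunits, Chaf1a (chr17:56040166-56040415, + strand), a subunit of chromatin assembly factor 1, and Rrm2 (chr12:24708004-24708253, + strand), the small subunit of ribonucleotide reductase. The Mcm5, Mcm6 and Chaf1a stretches lie outside annotated exons, and 13 bases of the Rrm2 stretch lie in one.
Mcm5: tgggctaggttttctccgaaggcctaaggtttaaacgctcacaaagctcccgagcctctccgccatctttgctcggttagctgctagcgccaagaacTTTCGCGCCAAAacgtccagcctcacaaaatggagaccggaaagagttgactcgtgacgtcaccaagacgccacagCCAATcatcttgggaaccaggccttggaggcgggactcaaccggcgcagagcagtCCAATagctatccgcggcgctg
Mcm6: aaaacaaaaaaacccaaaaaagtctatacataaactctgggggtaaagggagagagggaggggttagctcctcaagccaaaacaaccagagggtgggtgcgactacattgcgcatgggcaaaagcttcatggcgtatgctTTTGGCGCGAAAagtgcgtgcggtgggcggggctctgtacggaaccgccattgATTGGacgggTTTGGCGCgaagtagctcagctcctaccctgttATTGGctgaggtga
Chaf1a: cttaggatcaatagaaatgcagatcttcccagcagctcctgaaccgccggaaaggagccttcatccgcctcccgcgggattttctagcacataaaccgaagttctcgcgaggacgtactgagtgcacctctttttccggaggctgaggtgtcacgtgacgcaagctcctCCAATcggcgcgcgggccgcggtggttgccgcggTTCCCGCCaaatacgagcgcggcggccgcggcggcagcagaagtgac
Rrm2: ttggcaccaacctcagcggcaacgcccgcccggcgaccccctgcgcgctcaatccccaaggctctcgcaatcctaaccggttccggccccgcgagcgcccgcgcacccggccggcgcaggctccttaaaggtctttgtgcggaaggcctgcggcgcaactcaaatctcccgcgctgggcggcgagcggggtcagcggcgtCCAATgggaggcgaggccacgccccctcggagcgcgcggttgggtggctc

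In Mcm5 the words TTTCGCGC and, on the other strand, TTTGGCGC overlap from base -153 to -142, counted from the start, and in Mcm6 a like pair lies from -110 to -99, with a second TTTGGCGC from -47 to -40. The Rrm2 stretch holds a CCAAT box and none of the 4 E2F words. RefSeq promoters, each 300 bases from 250 before to 50 after the start, were available for 40 of the 47 genes in 48 windows; no entry was used for Gins1, Gins2, Gins4, Mcm4, Rfc2, Pole and Prim2. Any of the 4 E2F words stood in 21 of the 48 windows (43.8%), from 20 genes, against 1145 of all 32851 promoters (3.49%) and 931 of 20150 promoters of protein-coding genes (4.62%). By word, the shares were 16.7% against 0.323% of all promoters for TTTCGCGC, 12.5% against 0.514% for TTTGGCGC, 16.7% against 1.07% for TTTCCCGC and 14.6% against 2.19% for TTCCCGCC. CCAAT stood in 58.3% of the members' windows against 37.4% of all.

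By role, the E2F words were found in 7 of the 9 licensing genes with a promoter and 5 of the 6 chromatin genes, and in 1 of the 5 nucleotide supply genes (Rrm1) and none of the 3 single-strand binding genes. A match is a string of letters and not a measured site, and the absence of one says only that these letters are not in the window.

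Helicase activation genes summed to 569.7 and 532 CPM in Ccne2-led cells and to 448 and 395 CPM in Esco2-led cells. Gins2, a subunit of the GINS complex, was at 148 CPM in the Control and 158 CPM in the TBI library in Ccne2-led cells, and at 68.8 and 56.5 CPM in Esco2-led cells. Both libraries put Gins2 higher in Ccne2-led cells, by 2.41-fold (1.97 to 2.94).

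The other activation genes were spread more evenly over these clusters. Cdc45, the helicase cofactor, was at 145 and 106 CPM in Ccne2-led and 104 and 113 CPM in Esco2-led cells, so the libraries differed in which cluster was higher. Mcm10, an activator of the helicase, was at 59.8 and 82.0 CPM in Ccne2-led and 64.0 and 61.8 CPM in Esco2-led cells. Gins3 was at 35.6 and 39.2 CPM and at 58.5 and 39.1 CPM in the same clusters, with a ratio of 0.744 whose interval (0.538 to 1.02) included 1.

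The clamp and its loader summed to 1476 and 1458 CPM in Ccne2-led cells and 1186 and 1093 CPM in Esco2-led cells. Pcna, the sliding clamp that holds polymerases on DNA, was at 402 and 336 CPM in Ccne2-led cells, 279 and 249.7 CPM in Esco2-led cells, 148 and 113 CPM in Neurog2-led cells, 124 and 99.9 CPM in Dll1-led cells and 51.0 and 43.2 CPM in Cdc20-led cells. The Ccne2-led cluster was above the Esco2-led in both libraries, by 1.37-fold (1.23 to 1.53) with both together. Pcna has 2 annotated pseudogenes that could share its reads. Of the loader subunits Rfc1 to Rfc5, Rfc4 was level between the clusters, at 235 and 240.0 CPM in Ccne2-led and 249.8 and 248 CPM in Esco2-led cells.

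Polymerases and primase summed to 768 and 649.9 CPM in Ccne2-led and 646 and 596 CPM in Esco2-led cells, and only 2 of these 7 genes kept the same highest cluster in both libraries. Pole, the catalytic subunit of the leading-strand polymerase, was at 94 and 64.2 CPM in Ccne2-led and 63.4 and 69.6 CPM in Esco2-led cells. Lig1, the ligase that joins Okazaki fragments, was at 365 and 336 CPM in Ccne2-led and 267 and 249 CPM in Esco2-led cells, higher in the former in both libraries, with a ratio of 1.34 (1.20 to 1.5). The single-strand binding genes Rpa1, Rpa2 and Rpa3 summed to 518 and 536 CPM against 405 and 379 CPM.

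Nucleotide supply genes ran the other way. Their sum was 2309 CPM in the Control and 2169 CPM in the TBI library in Esco2-led cells, against 1855 and 1623 CPM in Ccne2-led cells. All 5 were higher in Esco2-led cells in each library, and the intervals for both libraries together excluded 1. Rrm2 was at 521 and 449 CPM in Esco2-led cells, 379 and 298 CPM in Ccne2-led cells and 128 and 85.4 CPM in Cdc20-led cells.

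Tk1, the thymidine kinase of the salvage route, was at 169 and 133 CPM in Esco2-led and 96.9 and 82.0 CPM in Ccne2-led cells. It was rare elsewhere, at 14.5 and 10.1 CPM in Cdc20-led and 7.18 and 9.66 CPM in Dll1-led cells. The Ccne2-led to Esco2-led ratios were 0.575 (0.471 to 0.698) for Tk1, 0.682 (0.615 to 0.755) for Rrm2, 0.730 (0.647 to 0.822) for the thymidylate synthase Tyms, 0.813 (0.722 to 0.915) for the large reductase subunit Rrm1 and 0.843 (0.787 to 0.902) for the dUTPase Dut.

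Ung, which removes uracil from DNA, had the highest Ccne2-led to Esco2-led ratio of the 47 genes but not the highest against Dll1-led cells, where its ratio was 2.87 (2.29 to 3.63) and those of Mcm10, Tk1 and Cdc45 were 28.2, 10.5 and 10.4. Ung was at 229 CPM in the Control and 242 CPM in the TBI library in Ccne2-led cells, against 29.9 and 33.9 CPM in Esco2-led and 17.0 and 12.9 CPM in Cdc20-led cells. It was also higher in Neurog2-led early neuroblasts, at 94.6 and 85.8 CPM, and in Dll1-led RG-like cells, at 73.6 and 90.2 CPM, than in both cycling clusters. The Ccne2-led to Esco2-led ratio was 7.50 (5.93 to 9.58), with 7.68 in the Control and 7.14 in the TBI library. Ung lies at chr5:114130386-114139323 on the + strand of GRCm38, and no other annotated gene overlaps it.

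Of the chromatin genes, Chaf1b, a subunit of chromatin assembly factor 1, was at 172 and 171 CPM in Ccne2-led and 82.2 and 71.3 CPM in Esco2-led cells, a ratio of 2.21 (1.84 to 2.65). Cdca7, an activator of the remodeller Hells, stood at 224 and 233 CPM against 121 and 118 CPM, with 208 and 174 CPM in Neurog2-led cells. Uhrf1, which brings the maintenance methylase to newly copied DNA, was at 365 and 416 CPM in Ccne2-led, 264 and 283 CPM in Esco2-led and 46.7 and 54.8 CPM in Dll1-led cells. Dnmt1, the maintenance methylase, did not differ between Ccne2-led and Esco2-led cells beyond counting error, at 218 and 223 CPM against 221 and 249 CPM. Slbp, which binds the stem-loop of replication-dependent histone mRNAs, was at 349 and 333 CPM against 342 and 292 CPM.

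**Figure D3:**
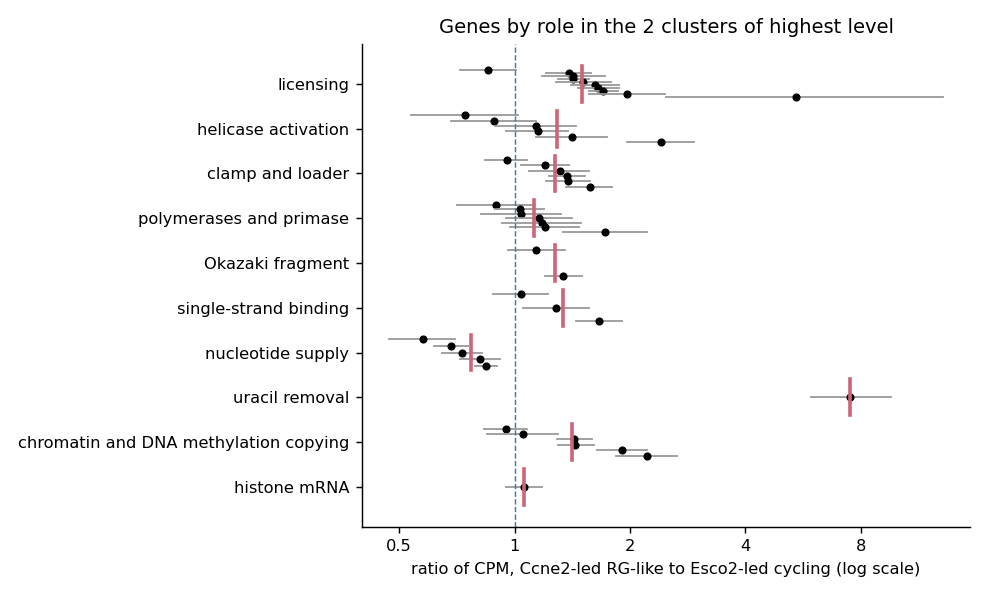
Ratio of the level in Ccne2-led RG-like cells to that in Esco2-led cycling progenitors (x axis, log scale) for each of the 47 genes, grouped by role (y axis), both libraries together, with grey lines for the 95% counting interval and a red bar at the ratio of the role's summed levels. Ung stands farthest to the right at 7.50, and the 5 nucleotide supply genes lie to the left of 1, from 0.575 for Tk1 to 0.843 for Dut.

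Counted at a change of 2-fold or more, among genes with enough UMIs, 3 of 46 members were higher in Ccne2-led than in Esco2-led cells (Ung, Gins2 and Chaf1b) and none lower, against 2.90% of all genes higher and 4.83% lower. Within the RG-like type, 38 of 45 members were higher in Ccne2-led than in Dll1-led cells and none lower, against 4.40% and 2.93% of all genes. The median log2 ratio was 1.56 for the members and -0.01 for all genes there, and the smallest ratios were 1.51 for Pold2, a subunit of polymerase delta, and 1.59 for Cdca7. Within the cycling type, 44 of 46 members were higher in Esco2-led than in Cdc20-led cells and none lower, against 6.55% and 2.00% of all genes, with medians of 1.78 and 0.02. Ung, Cdc6, Uhrf1, Chaf1b and Cdt1 were among the genes that led the Ccne2-led cluster, so these counts describe the clusters. Many members also passed the UMI limit only through the cluster where they were higher. Alone, 16 members reached 100 UMIs in Dll1-led and 44 in Ccne2-led cells, and 22 in Cdc20-led and 45 in Esco2-led cells.

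Along the early neuroblasts, 27 of 34 members were higher in Neurog2-led than in Neurod4-led cells and none lower, against 1.88% and 1.25% of all genes. Alone, 28 members reached 100 UMIs in Neurog2-led and 8 in Neurod4-led cells, so many passed the UMI limit through the Neurog2-led cluster. The largest ratios were 12.9 (6.82 to 27.6) for Rrm2 and 11.9 for Uhrf1. Between Neurod4-led and Tac2-led cells only Cdca7 of 18 members passed 2-fold, at 2.80 (2.00 to 3.95), against 0.827% of genes higher and 0.986% lower. Against Dll1-led RG-like cells, Neurog2-led cells had 0 of 37 members past 2-fold in either direction, against 2.64% and 3.66% of all genes. Cdca7, Ung, Mcm2 and Mcm6 were among the leading genes of the Neurog2-led cluster. Called doublets made up 12.1% of TBI and none of the Control cells of the Neurod4-led cluster. In this cluster the mural markers summed to 7.95 CPM in the Control and 958 CPM in the TBI library and the endothelial markers to 7.95 and 127 CPM, against 17.3 and 135 CPM and 3.46 and 49.6 CPM in the Neurog2-led cluster, and the part of these in the values was not tested.

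Between the types, 5 of 46 members were 2-fold or more higher in RG-like cells than in cycling progenitors and none lower, against 4.66% and 4.42% of all genes, with a median log2 ratio of 0.39 for the members and 0.09 for all genes. Ung was at 160.5 CPM in the Control and 178 CPM in the TBI library in RG-like cells against 24.5 and 23.7 CPM in cycling progenitors, a ratio of 7.03 (5.75 to 8.66). Gins2 was at 105 and 116 CPM against 47.9 and 38.0 CPM, and Chaf1b at 121 and 116 CPM against 51.5 and 42.9 CPM. Cdc6 and Cdca7 were the other members past 2-fold. At the low end, Tk1 stood at 57.2 and 51.3 CPM in RG-like cells against 105 and 73.3 CPM in cycling progenitors, a ratio of 0.595 (0.491 to 0.718), followed by Rrm2 at 0.687 (0.625 to 0.755) and Tyms at 0.729 (0.651 to 0.815).

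Other genes of the pathway, from lists fixed by name, followed the same clusters in part. Of 38 further replication genes, 14 of the 30 with enough UMIs were 2-fold or more higher in Ccne2-led than in Dll1-led cells and none lower, against 4.40% and 2.93% of all genes. In Esco2-led against Cdc20-led cells 18 of 33 were higher and none lower, against 6.55% and 2.00%. In Ccne2-led against Esco2-led cells 0 of 36 were higher and 2 lower (Dbf4 and Chtf18), against 2.90% and 4.83%. These genes were not kept out of the clustering, so the counts describe the clusters. Some could also pass the UMI limit mostly through the higher cluster. Dscc1 was at 9.34 CPM in Dll1-led and 105 CPM in Ccne2-led cells, and at 3.53 CPM in Cdc20-led and 68.1 CPM in Esco2-led cells. Clspn, an adaptor of the replication checkpoint, was at 34.0 CPM in Dll1-led, 238 CPM in Ccne2-led, 259 CPM in Esco2-led and 15.9 CPM in Cdc20-led cells, both libraries together. Gmnn, the inhibitor of Cdt1, was at 19.5, 180.1, 139.7 and 35.8 CPM in the same order. Dbf4, the regulatory subunit of the kinase that fires origins, went against the licensing genes, with 42.8 CPM in Ccne2-led and 196 CPM in Esco2-led cells, a ratio of 0.218 (0.166 to 0.282).

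Of 14 E2F and cyclin E genes, 0 were 2-fold or more higher in Ccne2-led than in Esco2-led cells and 3 lower (E2f5, E2f8 and Rbl1), against 2.90% and 4.83% of all genes. E2f1, an activator, was at 143 CPM in Ccne2-led and 95.7 CPM in Esco2-led cells, a ratio of 1.5 (1.25 to 1.80). Ccne2, a leading gene of its cluster, had a ratio of 1.82 (1.40 to 2.37). The intervals of E2f2 (1.27, 0.874 to 1.84), E2f3 (1.08, 0.857 to 1.36) and Ccne1 (1.15, 0.887 to 1.49) included 1. E2f8, a repressor of the same targets, was at 29.1 CPM in Ccne2-led and 73.4 CPM in Esco2-led cells, a ratio of 0.397 (0.281 to 0.550). All 22 genes of the mitotic list were 2-fold or more lower in Ccne2-led than in Esco2-led cells, from 0.0140 for Ube2c to 0.240 for Knstrn, against 4.83% of all genes. Cycling clusters were named by markers of this kind, Mki67 among them, so this count follows from the naming.

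Detection in single cells was compared after thinning each cell to 2000 UMIs. Every one of 112 Ccne2-led cells held a UMI of 5 or more of the 47 genes, 100% (92.1 to 100) in the Control and 100% (94.6 to 100) in the TBI library, with a median of 15.0 genes per cell in each. In Esco2-led cells the share was 94% (86.7 to 98.0) and 90.2% (81.7 to 95.7), with medians of 13.0 and 12.0 genes.

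Oligodendrocytes, which are postmitotic, served as the type that should lack most of the genes. Among them 0 of 551 Control cells, which allows a share of up to 0.544%, and 7 of 1028 TBI cells, 0.681% (0.274 to 1.40), reached 5 genes. Their median depth before thinning was 10175 and 8299 UMIs, against 17201 and 12354 UMIs in Ccne2-led cells, and 20 and 92 cells were too shallow for thinning. Without thinning the shares in oligodendrocytes were 56.6% and 43.5%.

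The clusters with intermediate levels were mixed. In Dll1-led RG-like cells 61.0% (44.5 to 75.8) of Control and 57.4% (44.1 to 70.0) of TBI cells reached 5 genes, and 24 of the 102 cells lay at 4 or 5 genes. In Neurog2-led early neuroblasts the share was 70.8% (58.2 to 81.4) and 54.4% (43.6 to 65.0), and in Cdc20-led cells 40% (28.9 to 52.0) and 28.6% (20.2 to 38.2). The TBI share was lower in each of these clusters, with intervals of the libraries that overlapped, which does not show that the shares were equal. By type, the Control and TBI shares were 68.6% and 55.6% in cycling progenitors, 81.4% and 79.7% in RG-like cells and 26.6% and 17.1% in early neuroblasts. With 1 library per condition these differences were not tested. Among single genes, Mcm6 had a UMI in 66.1% of thinned Ccne2-led, 46.4% of Esco2-led and 1.01% of oligodendrocyte cells, and Ung in 41.1%, 6.02% and 0.127%.

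**Figure D4:**
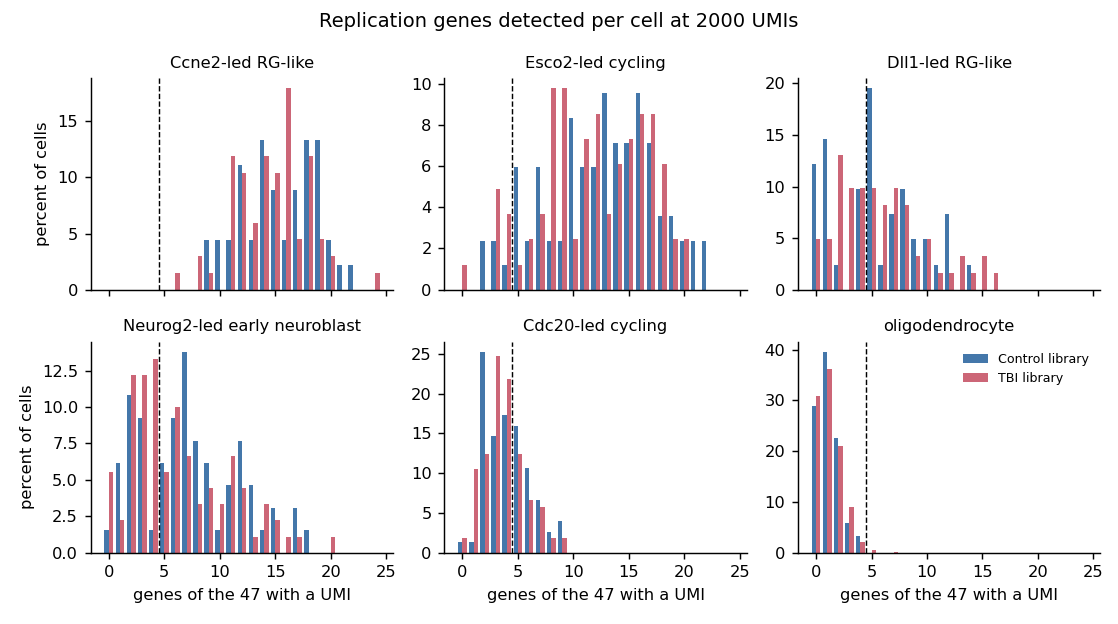
Number of the 47 genes with a UMI per cell after thinning to 2000 UMIs (x axis) against the percent of cells (y axis), for the Control and the TBI library in 6 clusters or types, with a dashed line at the limit of 5 genes. Ccne2-led cells lie wholly to the right of the line with a median of 15.0 genes, oligodendrocytes almost wholly to the left with a median of 1.00, and Dll1-led and Neurog2-led cells spread over both sides.

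The genes were also followed along a score of mitosis that holds none of them. Cells of the cycling and RG-like types were thinned to 4000 UMIs and divided by their UMIs of 22 mitotic genes into 71 cells with 0, 101 with 1 to 3, 72 with 4 to 9 and 311 with 10 or more. The summed level of the 47 genes was 4669 CPM (4417 to 4931) at 0, 7389 CPM (7124 to 7662) at 1 to 3, 6515 CPM (6221 to 6819) at 4 to 9 and 5456 CPM (5326 to 5589) at 10 or more. The types mix differently along the score, since 97 of the 101 cells at 1 to 3 were RG-like and 306 of the 311 at 10 or more were cycling, so this order is that of the pool. Within RG-like cells alone the level was 4669 CPM (4417 to 4931) at 0, 7564 CPM (7290.0 to 7845) at 1 to 3, 8556 CPM (8088 to 9046) at 4 to 9 and, in 5 cells, 8424 CPM (7195 to 9803) at 10 or more. Within cycling progenitors alone it was 4370.3 CPM (4029 to 4733) at 4 to 9 and 5407 CPM (5276 to 5540.2) at 10 or more, with 4 cells below. The fall from 1 to 3 to 4 to 9 in the pool was thus seen in neither type alone, and in RG-like cells the intervals at 4 to 9 and 10 or more overlapped.

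Over both types together 23 members had their highest level at 1 to 3, 14 at 4 to 9, 6 at 10 or more and 4 at 0. Within RG-like cells, over the 3 ranges with at least 20 cells, 29 members were highest at 4 to 9, 17 at 1 to 3 and Gins2 at 0, and within cycling progenitors 34 were highest at 10 or more and 13 at 4 to 9. The ranges are of a score and not types, and 53 of the 71 cells at 0 were Dll1-led. Clusters mix differently along the score within a type too. Ccne2-led cells were 18 of 71 RG-like cells at 0, 61 of 97 at 1 to 3 and 28 of 37 at 4 to 9. Of the cycling cells, 9 were Esco2-led and 26 Cdc20-led at 4 to 9, against 156 and 150 at 10 or more. The part of this makeup in the levels within a type was not tested. No UMI minimum was set for these counts, and the share over all genes is not given. The range of 4 to 9 held only 37 RG-like and 35 cycling cells. Counting error alone could thus place the peak of a rare member, and the counts are a description.

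Members differed in where they peaked, and the values that follow are for both types together unless a type is named. Gins2 was at 116, 98.2, 77.5 and 35.2 CPM from the lowest to the highest range and Ung at 90.6, 151, 91.6 and 24.5 CPM. Cdc6 was at 58.0, 57.9, 52.9 and 23.7 CPM. The levels of these genes were lowest in the range of highest scores, with ratios of the lowest to the highest range of 3.29 (2.02 to 5.33), 3.69 (2.08 to 6.49) and 2.44 (1.24 to 4.65). The lowest range held no cycling progenitors, so these ratios also compare the types. Within RG-like cells Gins2 was at 116, 102 and 103 CPM and Cdc6 at 58.0, 60.3 and 89.4 CPM over the 3 lower ranges, with intervals that overlapped. Within cycling progenitors Gins2 and Ung were higher at 4 to 9 than at 10 or more, and Cdc6 was higher at 10 or more.

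Chaf1b and Cdca7 had ratios of 1.99 (1.22 to 3.19) and 1.97 (1.37 to 2.79). Within cycling progenitors Chaf1b was higher at 10 or more and Cdca7 at 4 to 9. Over both types Rrm2 rose instead, with 119.5, 201, 250.2 and 304 CPM, as did Tk1, with 29.0, 52.9, 70.5 and 90 CPM, and Dut, with 283, 582, 602 and 687 CPM. The 6 members highest at 10 or more were Gins1 and the 5 nucleotide supply genes. The next lowest ratios were 0.443 for Gins3 and 0.452 for Mcm10, with intervals of 0.0865 to 1.42 and 0.140 to 1.13 that included 1. Pcna and Uhrf1 were highest at 1 to 3 in the pool, at 244 and 264 CPM. Within RG-like cells Pcna was at 249 CPM at 1 to 3 and 261 CPM at 4 to 9, and Uhrf1 at 273 and 282 CPM, and within cycling progenitors Pcna was at 65.0 CPM at 4 to 9 and 151 CPM at 10 or more, and Uhrf1 at 166 and 178 CPM.

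TBI and Control were then compared within each type, the question being what happens to lineage cells after the injury. In cycling progenitors the 47 genes summed to 6056 CPM in the Control and 5205 CPM in the TBI library, and the TBI to Control ratio was 0.860 (0.839 to 0.880). In RG-like cells the sums were 7364 and 7060.1 CPM, a ratio of 0.959 (0.932 to 0.986), and in early neuroblasts 2168 and 1839 CPM, a ratio of 0.848 (0.820 to 0.877). The TBI library was lower in each, but with 1 library per condition these differences cannot be told apart from differences between libraries or pools of animals. The ratio for early neuroblasts rose to 1.03 when the 47 genes were kept among the clustering genes.

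The makeup of cycling progenitors and early neuroblasts moved with these sums, whereas the share of Ccne2-led cells among RG-like cells was nearly the same in both libraries. The high Esco2-led cells were 86 of 162 Control and 82 of 187 TBI cycling progenitors, and within this cluster the ratio was 0.941 (0.916 to 0.966), against 0.859 (0.813 to 0.906) within the Cdc20-led cluster. Neurog2-led cells were 65 of 233 Control and 90 of 414 TBI early neuroblasts, and within the clusters of that type the ratios were 0.891 (0.852 to 0.932) for Neurog2-led, 0.909 (0.839 to 0.985) for Neurod4-led and 1.03 (0.956 to 1.10) for Tac2-led cells. For RG-like cells the ratios were 0.930 (0.901 to 0.960) in the Ccne2-led and 0.994 (0.933 to 1.06) in the Dll1-led cluster. Median depth was 17326 UMIs in Control and 11827 UMIs in TBI cycling progenitors, and called doublets made up 0% and 1.60% of them and 0% and 4.35% of early neuroblasts. The 8 oligodendrocyte markers, none at 0, summed to 155 CPM in Control and 894 CPM in TBI RG-like cells (151 and 1383 CPM in the Ccne2-led cluster), to 113 and 179 CPM in cycling progenitors and to 155 and 252 CPM in early neuroblasts, against 64073 and 68709.6 CPM in oligodendrocytes. The 8 mural markers, none at 0, summed to 14.3 and 135 CPM in RG-like cells, 13.1 and 79.1 CPM in cycling progenitors and 9.86 and 327 CPM in early neuroblasts, against 30270.2 and 28939.5 CPM in mural cells. The 6 endothelial markers summed to 5.56 and 10.3 CPM, 27.7 and 72.4 CPM and 4.93 and 54.0 CPM in the same types. The part of depth, doublets, makeup and RNA of these other types in the differences was not tested.

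Counted at 1.5-fold or more, 0 of 46 members were higher and 2 lower with TBI in cycling progenitors, against 1.52% and 1.70% of all genes. In RG-like cells it was 0 of 45 higher and 1 lower, against 1.86% and 1.23%, and in early neuroblasts 0 of 38 higher and 1 lower, against 1.74% and 0.903%. With 1 or 2 members each, these counts do not set the members apart from all genes, and the counts of lower members ran from 0 to 11 in cycling progenitors (11 without integration of the libraries), 0 to 3 in RG-like cells and 0 to 2 in early neuroblasts over 12 alternative settings. The median log2 ratios were -0.25 for the members in cycling progenitors, -0.05 in RG-like cells and -0.27 in early neuroblasts, with 0.00, 0.01 and 0.01 for all genes. Intervals that excluded 1 were found for 0 members above and 18 below it of 46 in cycling progenitors, against 8.74% and 8.89% of all genes, and for 0 above and 13 below of 38 in early neuroblasts, against 9.10% and 7.51%. In RG-like cells they were 3 above and 5 below of 45, against 6.63% and 5.98%.

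In cycling progenitors the lowest ratio was that of Gins3, at 36.2 CPM in the Control and 23.7 CPM in the TBI library, 0.654 (0.460 to 0.920). Fen1, the flap endonuclease of Okazaki fragments, was at 96.5 and 63.4 CPM, a ratio of 0.657 (0.533 to 0.808). These were the members past 1.5-fold, both lower with TBI, but Gins3 stayed past the threshold under only 4 of the 12 alternatives (0.602 to 0.757) and Fen1 under 6 (0.557 to 0.769). Prim2, the large primase subunit, was at 75.2 and 51.4 CPM (0.683, 0.539 to 0.861), Rpa2 at 123 and 85.8 CPM (0.696, 0.581 to 0.833) and Tk1 at 105 and 73.3 CPM (0.70, 0.575 to 0.850).

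Members at the other end had the same level in both libraries within counting error. Chaf1a was at 54.7 and 56.7 CPM, a ratio of 1.04 (0.814 to 1.32), and Dnmt1 at 150.5 and 151 CPM, 1.01 (0.870 to 1.16). Dut was at 659 and 659.9 CPM, 1.00 (0.934 to 1.07), Cdc45 at 66.4 and 66.6 CPM, 1.00 (0.803 to 1.25), and Mcm2 at 98.3 and 96.5 CPM, 0.982 (0.818 to 1.18). Members of 1 role thus differed, as Dut stayed level while Rrm2 was at 357 and 272 CPM, a ratio of 0.763 (0.689 to 0.844). Pcna was at 184 and 149 CPM, a ratio of 0.812 (0.705 to 0.933), and Uhrf1 at 192 and 177 CPM, 0.920 (0.806 to 1.05).

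By role, among roles with several genes, the ratios in cycling progenitors ran from 0.765 (0.680 to 0.860) for Okazaki fragment genes, at 269.8 and 206 CPM, to 0.958 (0.896 to 1.02) for the chromatin genes, at 726 and 696 CPM. Ung, alone in its role, had a ratio of 0.967 (0.663 to 1.40). The helicase subunits Mcm2 to Mcm7 summed to 1059 CPM in the Control and 924 CPM in the TBI library, 0.872 (0.824 to 0.923). Other pathway lists were lower too: the 14 E2F and cyclin E genes stood at 578 and 491 CPM (0.850, 0.786 to 0.918), the 22 mitotic genes at 9183 and 8462 CPM (0.922) and the 38 other replication genes at 4501 and 4369 CPM (0.971, 0.945 to 0.997). Of these lists, Dscc1, a subunit of an alternative clamp loader (1 of 33 counted), and Cdk2, the kinase partner of cyclin E (1 of 13), were past 1.5-fold. Both were lower with TBI, and 0 of 22 mitotic genes passed, against 1.52% of all genes higher and 1.70% lower. In RG-like cells Rtf2 (1 of 30) and Rbl2 (1 of 8) were higher with TBI, and in early neuroblasts Dtl (1 of 25) and Mki67 (1 of 5) were lower. With 1 gene each, these counts do not set the lists apart from all genes. In Esco2-led cells alone the mitotic genes were at 9169.8 and 9796 CPM (1.07, 1.04 to 1.09) and in Cdc20-led cells at 9201 and 7053 CPM (0.767, 0.744 to 0.789), so the clusters of the type ran in opposite directions.

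**Figure D5:**
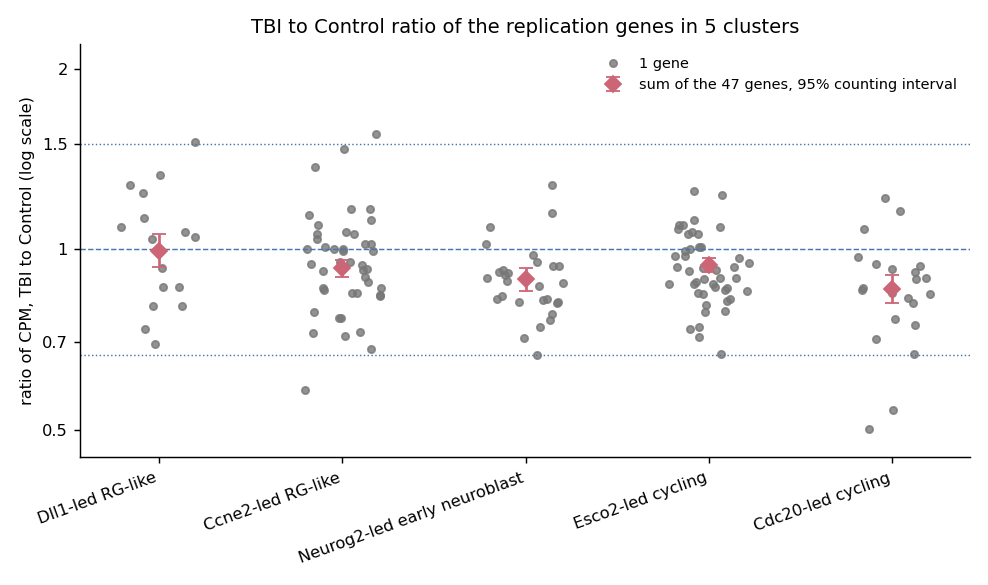
TBI to Control ratio of each of the 47 genes with enough UMIs (points; y axis, log scale) in 5 lineage clusters (x axis), with dotted lines at 1.5-fold and a diamond with its 95% counting interval for the sum of the 47 genes. The diamonds lie at 0.994 in Dll1-led, 0.930 in Ccne2-led, 0.891 in Neurog2-led, 0.941 in Esco2-led and 0.859 in Cdc20-led cells, and few points cross a dotted line.

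In RG-like cells Pola2, the second subunit of polymerase alpha, was at 71.5 CPM in the Control and 45.1 CPM in the TBI library, and the ratio was 0.631 (0.452 to 0.877). It was the member past 1.5-fold, under 7 of the 12 alternatives too, and its ratio was 0.993 at a clustering resolution of 1.5. Gins1 was at 56.4 and 40.3 CPM (0.715, 0.498 to 1.02), Prim2 at 81.0 and 62.2 CPM (0.768, 0.572 to 1.03), Prim1 at 155 and 119.7 CPM (0.772, 0.626 to 0.952) and Mcm5 at 207 and 160.0 CPM (0.775, 0.646 to 0.928). Pola1, the catalytic subunit of the same polymerase as Pola2, ran the other way, at 63.6 and 86.8 CPM, a ratio of 1.37 (1.02 to 1.83). Rfc1, the large loader subunit, was at 143 and 191 CPM (1.34, 1.11 to 1.62), Mcm10 at 35.7 and 47.2 CPM (1.32, 0.894 to 1.97), Cdt1 at 77.1 and 95 CPM (1.23, 0.945 to 1.62) and Uhrf1 at 224 and 263 CPM (1.17, 1.00 to 1.37).

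Within the Ccne2-led cluster the opposite values of the polymerase alpha subunits were larger. Pola1 was at 78.3 and 122 CPM, a ratio of 1.56 (1.12 to 2.21), and Pola2 at 104 and 60.6 CPM, a ratio of 0.583 (0.399 to 0.845). They were the only members past 1.5-fold of 44 in this cluster, 1 higher and 1 lower, against 2.16% and 1.32% of all genes. In the Esco2-led cluster 0 of 45 members passed 1.5-fold in either direction, against 1.75% and 1.69%. In the Cdc20-led cluster 2 of 22 were lower and none higher, against 2.76% and 1.92%, namely Rfc3 at 69.7 and 34.9 CPM (0.501, 0.331 to 0.744) and Rpa2 at 59.5 and 32.1 CPM (0.540, 0.349 to 0.822). In Dll1-led cells 1 of 16 was higher and none lower, against 1.85% and 2.34%, namely Mcm3 at 84.4 and 127 CPM (1.51, 1.04 to 2.21). In early neuroblasts the member past 1.5-fold was Rfc5, at 23.6 and 15.4 CPM (0.651, 0.453 to 0.934), past the threshold under 4 of the 12 alternatives, and in the Neurog2-led cluster 0 of 28 passed, against 2.46% higher and 1.32% lower.

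Outside the lineage most of the genes were rare, with exceptions. Of 46 members, 42 were 2-fold or more higher in cycling progenitors than in oligodendrocytes and none lower, against 29.2% and 20.1% of all genes, with a median log2 ratio of 3.70 against 0.29. Alone, 46 members reached 100 UMIs in cycling progenitors and 22 in oligodendrocytes, so many passed the UMI limit through cycling progenitors. Rrm2 was at 357 and 272 CPM in cycling progenitors and 0.702 and 1.02 CPM in oligodendrocytes, a ratio of 357 (208 to 672). Cdc6 had 1 UMI in all oligodendrocytes and Mcm10 had 2, which gave ratios of 446 (78.9 to 17731) and 289 (79.0 to 2405).

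The members with the smallest ratios were expressed in postmitotic cells. Gins4 was at 59.6 and 47.4 CPM in cycling progenitors and 65.6 and 64.3 CPM in oligodendrocytes, a ratio of 0.836 (0.728 to 0.958). Rfc1 was at 130.3 and 116 CPM against 97.7 and 109 CPM, a ratio of 1.19 (1.08 to 1.30), and reached 287 CPM in Reln neurons, both libraries together. Rpa1 was at 63.5 and 59.9 CPM against 30.2 and 35.5 CPM, a ratio of 1.85 (1.60 to 2.14). Against later neuroblasts, 44 of 46 members were 2-fold or more higher in cycling progenitors and none lower, against 11.2% and 14.6% of all genes. In later neuroblasts alone 26 members reached 100 UMIs. The UMIs of Gins4 in thinned cells came from 11.8% of oligodendrocytes and 19.6% of Ccne2-led cells.

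Of the types outside the lineage, the summed level differed most between the libraries in OPCs, the dividing precursors of oligodendrocytes, with 28 Control and 55 TBI cells. The 47 genes summed to 645 CPM (544 to 761) in the Control and 1070.3 CPM (967 to 1182) in the TBI library, and the ratio was 1.66 (1.36 to 2.02). No member had enough UMIs in OPCs to be compared alone between the libraries. The licensing genes summed to 118 and 225 CPM (1.90, 1.21 to 3.08), the chromatin genes to 22.7 and 118 CPM (5.19, 2.06 to 16.8) and the 22 mitotic genes to 40.9 and 140.0 CPM (3.42, 1.67 to 7.91). The sums of the other roles are not given. The chromatin sum rests on few UMIs, of which Dnmt1 alone gave 3 in the Control and 23 in the TBI library. Members of other roles ran both ways, such as Rfc3, at 1 and 16 UMIs, and Pcna, at 13 in each library (0.604, 0.258 to 1.41). After thinning, 0 of 27 Control OPCs, which allows a share of up to 11.1%, and 5 of 48 TBI OPCs, 10.4% (3.47 to 22.7), held 5 or more of the genes. The libraries differed in these cells beyond the 47 genes: the 8 oligodendrocyte markers, none at 0, summed to 23292 CPM in Control and 5612 CPM in TBI OPCs, the 8 OPC markers to 5168 and 6825 CPM, the 9 early neuroblast markers to 732 and 1501 CPM, the 8 late neuroblast markers to 355 and 672 CPM, the 10 RG-like markers to 691 and 1043 CPM, and the median mitochondrial share was 9.83% and 4.57%. The part of these differences in the result was not tested. In the Control library the oligodendrocyte markers of this group summed higher than its OPC markers, so the group there was not clearly OPCs alone. In Reln neurons, with 31 and 77 cells, the sums were 1064 and 1250.1 CPM (1.18, 1.01 to 1.36). Markers of other types moved there too, with 2305 and 279.7 CPM for oligodendrocytes, 2856 and 958 CPM for early neuroblasts, 2407 and 1150.4 CPM for late neuroblasts, 15.1 and 231 CPM for endothelial cells and 79.2 and 292 CPM for mural cells, and their part was not tested. In oligodendrocytes (1.02, 0.976 to 1.06) and astrocytes (1.02, 0.938 to 1.10) the ratios of the sums had intervals that included 1.

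Against oligodendrocytes, both libraries together, 5 of 23 members were 2-fold or more higher in OPCs (Dut, Rfc3, Prim2, Mcm3 and Rfc4) and 1 lower (Fen1), against 23.2% and 11.3% of all genes. No member had over 48 UMIs in OPCs, so those counted passed the UMI limit mostly through oligodendrocytes. Fen1 had 1 Control and 2 TBI UMIs in OPCs, and its ratio of 0.357 had an interval (0.0731 to 1.06) that included 1. Members rare in oligodendrocytes were thus left out, such as Cdca7 (15.8, 5.21 to 44.8) and Pole (0, 0 to 4.78). In the Control and TBI library the ratios were 0.540 and 5.18 for Rfc3, 1.31 and 3.86 for Prim2 and 2.47 and 1.75 for Rfc4. Dut and Mcm3 passed 2-fold in both. In astrocytes against oligodendrocytes 1 of 27 was higher (Gins2) and 6 lower (Fen1, Gins4, Lig1, Prim1, Dnmt1 and Rfc4), against 24.4% and 14.2%. Between the libraries, 0 of 26 members in later neuroblasts were 1.5-fold or more higher with TBI and 0 lower, against 0.654% and 1.24% of all genes, and 0 of 22 in oligodendrocytes were higher and 0 lower, against 1.31% and 0.738%. In mural cells 1 of 7 was higher (Rfc2) and none lower, against 6.69% and 4.94%, and in endothelial cells 0 of 8 was higher and 1 lower (Mcm6), against 1.48% and 1.06%.

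Genes outside the list whose level followed the summed 47 genes most closely were named by Pearson's r over 22 points, the 11 types in each of 2 libraries, among 6718 genes. They were Rad51ap1 (0.960), Tipin (0.958), Ranbp1 (0.958), Brip1 (0.954), Mms22l (0.954), Exo1 (0.953), Cenph (0.952), Tcf19 (0.951), Kntc1 (0.949) and Aunip (0.948). The points share libraries and depths, and the values are a description. Ranbp1, a partner of the nuclear transport GTPase Ran, was at 727 CPM in RG-like cells, 669 CPM in cycling progenitors and 93.4 CPM in oligodendrocytes. Rad51ap1, a factor of homologous recombination, was at 74.6, 94.5 and 1.24 CPM in the same types.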

How the data were processed

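Dentate gyrus cells were captured in droplets with a 3′ kit, 1 library per condition. The deposited tables hold counts of UMIs per gene and barcode, whole numbers that the authors made with Cell Ranger 3.0.2 on GRCm38/mm10 (submitters' processing notes), without normalization. Whether the counting used strand is not given in the sources used here. All barcodes listed by condition in the study's supplement (356 Control, 320 TBI) were found in the table of that condition and none in the other.

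A cell was kept if 200 or more genes were detected and its UMI count lay, on the log scale, no more than 3 median absolute deviations from the median of its library. Doublets were called with scanpy 1.11.5 and left in. Clustering used R 4.3.3 and Seurat 5.3.0 with the study's settings (2000 variable genes without Malat1, 20 dimensions, 20 principal components, resolution 3.0), in a later version, and without the 47 genes, so the clusters are not the authors' own. A type required 3 markers detected in 10% of its cells. A cluster stayed unnamed if its 10 leading genes held more markers of another class than of its own. It also did if its median UMI count was below 0.333 of the library median and no marker of its own was leading. These checks treated the 3 neuronal lists as 1 class, which was decided after the clusters were seen, and 460 cells stayed unnamed. UMIs were summed over cells, with exact Poisson, Clopper-Pearson and conditional binomial intervals at 95%, and, for a share of 0, an upper limit of 3 counts of the total, (scipy 1.17.1, numpy 2.4.6, python 3.11.15, matplotlib 3.10.9). Members were counted in comparisons when they had at least 100 UMIs in all and, between libraries, 10 in each, and the thresholds of 1.5-fold between libraries and 2-fold between clusters are rules of size. Other filters, clustering choices, scalings, thinning depths and thresholds were tried as alternatives. The ratio and count scripts were tested on simulated data. The mitotic ranges were read over cycling and RG-like cells together, because cycling cells alone had 0 cells in the lowest range, which was decided after that was seen.

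Named genes were the 3 highest and 3 lowest ratios of RG-like to cycling and of cycling to oligodendrocyte level, the 5 highest and 5 lowest between the libraries in cycling and RG-like cells and along the mitotic ranges, all members past a threshold, and Pcna, Mcm2 to Mcm7, Rrm2 and Uhrf1; other members named for their place in a role were chosen after their values were seen. The members and gene lists were chosen with earlier results of these data known. Of the 47 genes, 11 overlap another annotated gene on the same strand and 17 one on the other strand, and 2 have a named pseudogene. Single levels of 2 marker genes are not reported here. Promoters come from RefSeq on GRCm38.p6 and gene positions from GENCODE on the same build.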

Additional observations from a re-analysis of the deposited data

How the results depend on the processing

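With 1 library per condition no library could be left out, and no test was made. No paired analysis was possible because the animals of a condition were pooled into 1 library, so the replicate numbers of the labels mark no separate measurement. Values below are in the order cycling progenitors, RG-like cells and early neuroblasts unless named, and give only those that moved beyond their counting interval or, for counts of members lower with TBI, by over 1.5 times; the cause was not tested. The count of members higher with TBI stayed 0 under all 12 alternatives in each type.

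Without the filter on UMIs, the TBI to Control ratios were 0.897 and 0.893 for cycling progenitors and RG-like cells, the counts 0 for cycling progenitors and early neuroblasts, and the summed levels 5888, 6746 and 2019.9 CPM. With cells above 10% mitochondrial UMIs left out, cycling progenitors had a ratio of 0.951, a count of 0 and shares with 5 or more genes of 78.0% (Control) and 73.0% (TBI), and the levels were 6959, 6648 and 1844 CPM. With called doublets removed, the RG-like ratio was 0.888, the counts 1, 3 and 0, the RG-like shares 71.4% in each library, the TBI early neuroblast share 24.0% and the levels 5422, 6810.1 and 2135 CPM. With the 47 genes kept among the clustering genes, the ratios were 0.887, 0.915 and 1.03, the counts 0, 0 and 0, the early neuroblast shares 10.5% and 6.21% and the levels 5836, 6076 and 1197 CPM. With cell cycle genes left out of clustering, the ratios were 0.907, 0.909 and 0.983, the counts 0 for cycling progenitors and RG-like cells, the early neuroblast shares 9.40% and 5.81%, the TBI RG-like share 67.7% and the levels 5869.7, 6263 and 1100.0 CPM. Without integration of the libraries, the ratios were 0.770, 0.995 and 0.928, the counts 11 for cycling progenitors and 0 for early neuroblasts, the TBI shares 45.2% and 70.5% for cycling progenitors and RG-like cells and the levels 5198, 6516 and 1836 CPM. At resolution 1.5, the ratios were 0.909, 0.894 and 0.986, the counts 0 for cycling progenitors and early neuroblasts, the RG-like shares 67.5% and 54.1%, the early neuroblast shares 6.84% and 4.71% and the levels 6359, 3895 and 1034 CPM.

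At a minimum of 200 UMIs the counts were 1, 0 and 0, at 50 UMIs early neuroblasts had 2, and at 2-fold the counts were 0, 0 and 0. Thinned to 1000 UMIs, the Control and TBI shares were 44.4% and 35.3%, 65.1% and 57.8%, and 12.0% and 7%; thinned to 4000 they were 92.5% and 90.3% for cycling progenitors, 91.3% for TBI RG-like cells, and 50.9% and 43.9% for early neuroblasts. With 3 or more genes, they were 85.5% and 85.6% for cycling progenitors, 89.1% for TBI RG-like cells, and 48.9% and 46.6% for early neuroblasts; with 8 or more, 45.3% and 38.5%, 67.4% and 65.6%, and 12.0% and 7.73%. The ratio of the lowest to the highest mitotic range, 0.856 (0.806 to 0.908) at 4000 UMIs, was 1.04 with the score taken at 2000 UMIs, so its direction depended on the depth. The TBI to Control ratio stayed below 1 under all 9 alternatives in cycling progenitors (0.770 to 0.951) and RG-like cells (0.888 to 0.995). Leaving mitochondrial and hemoglobin genes out of the total, or scaling by the median of ratios, moved no ratio beyond its interval. In OPCs, Reln neurons and microglia the depth allowed at most 1 member to be counted.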
